A study of Homo sapiens with 60 samples.

Results

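The subject is 43 ribosome biogenesis factors, genes whose proteins build ribosomes without staying in the finished particle. They were taken by symbol from the 57665 genes of the deposited tables, each symbol matched 1 gene, and all 43 were among the 18040 genes that passed a filter on low counts. The members were grouped by the step they serve: RNA polymerase I and its initiation factor (5 genes), box C/D small nucleolar ribonucleoproteins (4), box H/ACA small nucleolar ribonucleoproteins (2), abundant nucleolar proteins and factors linked to transcription (5), early processing of the small subunit (6), late assembly of the small subunit (5), the PeBoW complex of the large subunit (3) and other assembly of the large subunit (13).

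RNA was sequenced in 60 libraries of U2OS cells, a long-established line from a human osteosarcoma, stably carrying Dmr-PERK, a fusion of the kinase domain of mouse PERK to the DmrB domain. The small molecule AP20187, the dimerizer, pairs the fusion proteins and switches the kinase on, so that eIF2α is phosphorylated and the integrated stress response (ISR) begins without another stress. Cells received 0.01, 0.2 or 3 nM of AP20187 (the middle dose is rounded here, and the figures carry its labelled value). They were collected after 1, 2, 4, 8 and 16 h and after a full day (24 h), with 3 libraries in each of the 18 combinations, and 2 untreated sets of 3 libraries were labelled 0 h (untreated set 1 and untreated set 2). Every library came from cells with the construct and the labelled genotype WT, and cells without the construct were not analysed here. The labels did not say whether the line was 1 clone, whether untreated wells received vehicle or which untreated set belonged to which dose.

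Ribosome assembly starts in the nucleolus, where RNA polymerase I transcribes the long precursor of most ribosomal RNA. Box C/D and box H/ACA particles, guided by small nucleolar RNAs, modify that precursor and help to cut it, and separate crews of assembly factors then mature the small (40S) and large (60S) subunits on their way to the cytoplasm. It is among the most costly tasks of a growing cell and is usually tied to growth signals and to the transcription factor MYC. The ISR lowers general protein synthesis through phosphorylated eIF2α while it raises translation of the transcription factor ATF4.

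Total counts were 5598803 to 10367667 in the 39 libraries of untreated set 1, 0.01 nM and 0.2 nM. They were 20713981 to 28436445 in the 21 libraries of untreated set 2 and 3 nM. Among the treated libraries the high dose and the deeper sequencing therefore cannot be told apart. The mitochondrial genome's RNAs made up 10.5% ± 0.7 of set 1's counts (mean ± SD over 3 libraries), but 5.49% ± 0.075 of set 2's and 4.18% ± 0.021 at 3 nM for 24 h. Untreated set 1 stood apart in this share, since the other group means were 4.18% to 6.58%, and results are therefore also given against each untreated set alone. Of the members, 18 were higher and 2 (PES1 and RRP1B) lower in untreated set 2 than in set 1, against 14.9% of all genes higher and 14% lower; the largest difference was a log2 fold change of 0.32 for POLR1A. Of 7 mesenchymal and bone markers VIM was at 1090 to 3023 TPM, but COL1A2 was at 0 to 0.986. Epithelial EPCAM, CDH1 and CLDN4 were detected in every library, at up to 6.96, 7.49 and 15.8 TPM, and so was the myeloid marker CD68, at up to 8.9, whereas the T-cell marker CD3E, LYZ of myeloid cells and the red-cell marker HBB were at 0 in 54, 54 and 55 of the 60 libraries. The summed level of the 7 mesenchymal and bone markers was 4878 to 5371 TPM in the 6 untreated libraries and 1580 to 1610 TPM at 3 nM for 24 h, and its part in the results below was not tested.

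Member levels are given as CPM (counts relative to library size, scaled with the TMM method) or as the deposited TPM where genes are compared with each other, since only TPM accounts for gene length. In the untreated cells the most abundant members by TPM were NPM1 at 1580 ± 233, NCL at 329 ± 41.6 and NOP56 at 187 ± 21.5 (mean ± SD, n = 6). UTP20 at 6.34 ± 0.846, RRN3 at 12.7 ± 1.06 and RRP1B at 13.2 ± 1.09 TPM were the least abundant. Differences between groups were tested on the counts with the quasi-likelihood test of edgeR over all 18040 genes, and a gene is called higher or lower at a Benjamini-Hochberg adjusted p under 0.05. Untreated means the average of the means of both sets, and log2 fold changes carry their standard error (SE). The labels call the 3 libraries of a group replicates without saying that they came from separate cultures, so p-values measure only the spread between these libraries, which may be technical. Fewer transcripts per cell and fewer transcribing cells cannot be told apart in such bulk RNA.

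At 3 nM for 24 h all 43 were called higher than untreated, with a median log2 fold change of 1.36 and a range from 0.68 to 2.17, when 41.1% of all genes were called higher and the median of all genes was 0.0533. At least a 2-fold rise was called for 33 of the 43, against 10.5% of all genes. At 0.2 nM for 24 h all 43 were again called higher, with a median of 0.88 (34.3% of all genes), and 11 by at least 2-fold (6.68% of all genes). At 0.01 nM for 24 h 12 were called higher and 9 lower, with a median of 0.03, when 21% of all genes were called higher and 22.2% lower. The strongest dose therefore left every member above untreated after a day and the weakest left the group near its starting level. Against untreated set 1 alone the members higher at 24 h numbered 43, 43 and 16 at 3, 0.2 and 0.01 nM (background 39.8%, 32.2% and 18.9%), and against set 2 alone 43, 43 and 9 (background 39%, 32% and 19.7%).

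No treated library overlapped an untreated library in any member at 3 nM for 8, 16 or 24 h or at 0.2 nM for 16 or 24 h: every treated library lay above all 6 untreated ones in all 43. Among all genes that held for 31.7%, 34.9% and 35.6% at 3 nM and for 27.9% and 26.4% at 0.2 nM. The members' summed TPM was 3572 to 3783 in the libraries of untreated set 1 and 4666 to 4853 in those of set 2, and 9183 to 9422 in those of 3 nM for 24 h. As a share of all TPM this is 0.371% ± 0.012, 0.473% ± 0.011 and 0.928% ± 0.013 (SD, n = 3). NPM1 was the largest single part, with 1376 of the mean sum of 3706 TPM in untreated set 1. The mean share was highest at 16 h at each dose, at 0.607% ± 0.017, 0.772% ± 0.0082 and 0.951% ± 0.0077 from the lowest dose to the highest, and at 0.01 nM it was back to 0.482% ± 0.0095 by 24 h.

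**Figure D1:**
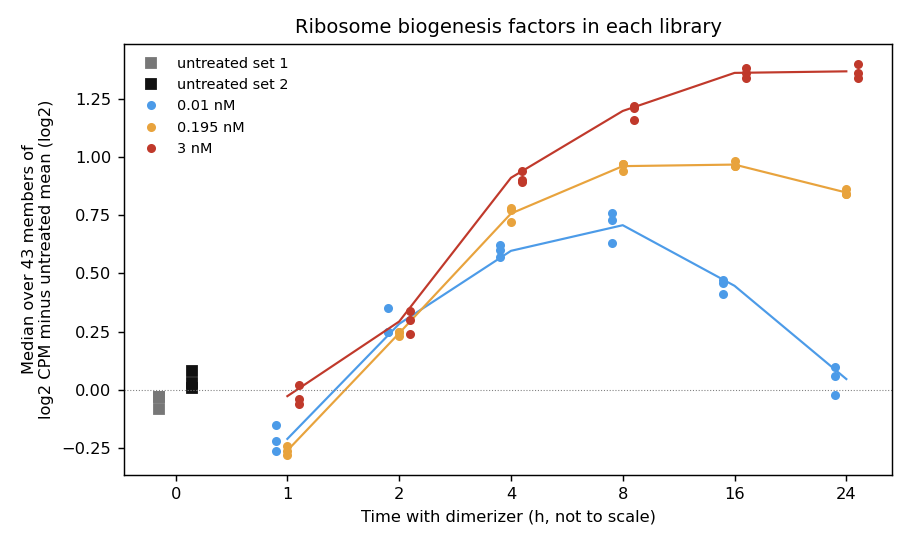
Each point is 1 library: the median over the 43 members of log2 CPM minus the mean of the untreated libraries (y axis, log2), by time with dimerizer (x axis, h, not to scale), with squares for the untreated sets, colours for doses and lines through the means of 3 libraries. The 3 nM libraries reach 1.34 to 1.40 at 24 h and the 0.01 nM libraries return to -0.02 to 0.10.

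Before the rise members dipped on the count scale, and much less on TPM. At 1 h 28 of the 43 were called lower at 0.01 nM (median -0.22) and 34 at 0.2 nM (median -0.25), when 15.5% and 19% of all genes were called lower, and 0 and 1 (POLR1A) were called higher, when 12.6% and 16.2% of all genes were. At 3 nM 16 were lower and 8 higher (21% and 22.6% of all genes), with a median of -0.03. On the deposited TPM, tested with limma on log2(TPM + 0.5), only 7, 7 and 0 members were lower at 1 h, and 3, 3 and 21 higher, so the median at 3 nM turned from -0.03 to 0.19. On that scale the median of all genes itself stood 0.11, 0.20 and 0.22 above untreated at 1 h, and the members' medians relative to it were -0.18, -0.22 and -0.04. Of all genes called at 1 h, the share that was higher went from 44.8%, 46.1% and 51.8% on counts to 85.2%, 91.8% and 92.4% on TPM. Over the 18 comparisons with untreated that share was 44.8% to 54.2% on counts and 57.2% to 92.4% on TPM. The later rises were less affected: relative to the median of all genes on TPM, the members' medians at 24 h were 1.27, 0.80 and 0.06 at 3, 0.2 and 0.01 nM.

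By 2 h the direction had turned. Called higher were 33, 32 and 32 members at 0.01, 0.2 and 3 nM, with medians of 0.26, 0.26 and 0.30, against 21.5%, 22.4% and 27.4% of all genes, and 3, 5 and 2 were lower, against 22%, 22.4% and 23.1%. Fewer members differed between doses at this time than later. Between 0.2 and 0.01 nM at 2 h only 2 members were called higher and 1 lower (5.53% and 4.36% of all genes), and between 3 and 0.2 nM 14 higher and 6 lower (20.9% and 15.2% of all genes). At 4 h 40 members were called higher at each dose, with medians of 0.63, 0.74 and 0.92, against 25.9%, 30.1% and 34.9% of all genes. The exceptions were the same genes at the upper doses: FBL, NPM1 and FTSJ3 were lower at 0.2 nM (-0.27, -0.24 and -0.16) and not called at 3 nM (0.07, 0.04 and 0.00). At 0.01 nM NPM1 was lower (-0.18), and FBL (-0.10) and FTSJ3 (0.02) were not called. On TPM 0 members were lower at 4 h at any dose, when 2526, 2651 and 3264 of all genes were lower. On that scale 42 members were higher at 3 nM, when 5457 of all genes were. Against untreated set 1 alone 42 were also higher at 3 nM for 4 h on counts. At 8 h 41, 40 and 43 were higher, with medians of 0.71, 0.95 and 1.19 (27.8%, 32.8% and 38.5% of all genes). At 16 h the numbers were 36, 43 and 43 and the medians 0.44, 0.97 and 1.36 (26.9%, 34.9% and 40.6% of all genes).

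The doses differed in how long the rise lasted. The highest of the 6 time means fell at 8 h for 26 members and at 4 h for 11 at 0.01 nM. At 0.2 nM it fell at 16 h for 22, at 8 h for 12 and at 4 h for 8. At 3 nM it fell at 24 h for 24, at 16 h for 10 and at 8 h for 9. At 3 nM 8 members were called higher from 1 h on at every later time (POLR1A, POLR1B, POLR1E, RRN3, DDX21, WDR43, NOP14 and PPAN), 24 from 2 h, 8 from 4 h, and FBL, NPM1 and FTSJ3 from 8 h. The 8 at 1 h are a smaller share of the members than the 22.6% of all genes in the same fit. They depended on the libraries used: 14 members were higher at 1 h against untreated set 1 alone and 2 against set 2 alone. Without replicate 1, 2 or 3 of every group they were 6, 2 and 3. The shares of all genes under these other settings are not given here, so the counts show only that the number moved. At 0.2 nM the same 3 genes were the last, called higher only from 16 h. These late calls are on counts against the average of both untreated sets. On TPM 42 members were already higher at 3 nM for 4 h and at 0.2 nM for 8 h, when 5457 and 7014 of all genes were. At 0.01 nM 31 members were called higher at no time that held through 24 h. That count follows from the 12 called higher at 24 h, near the 21% of all genes called higher then. The share of all genes whose calls lasted in this way was not computed at any dose.

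**Figure D2:**
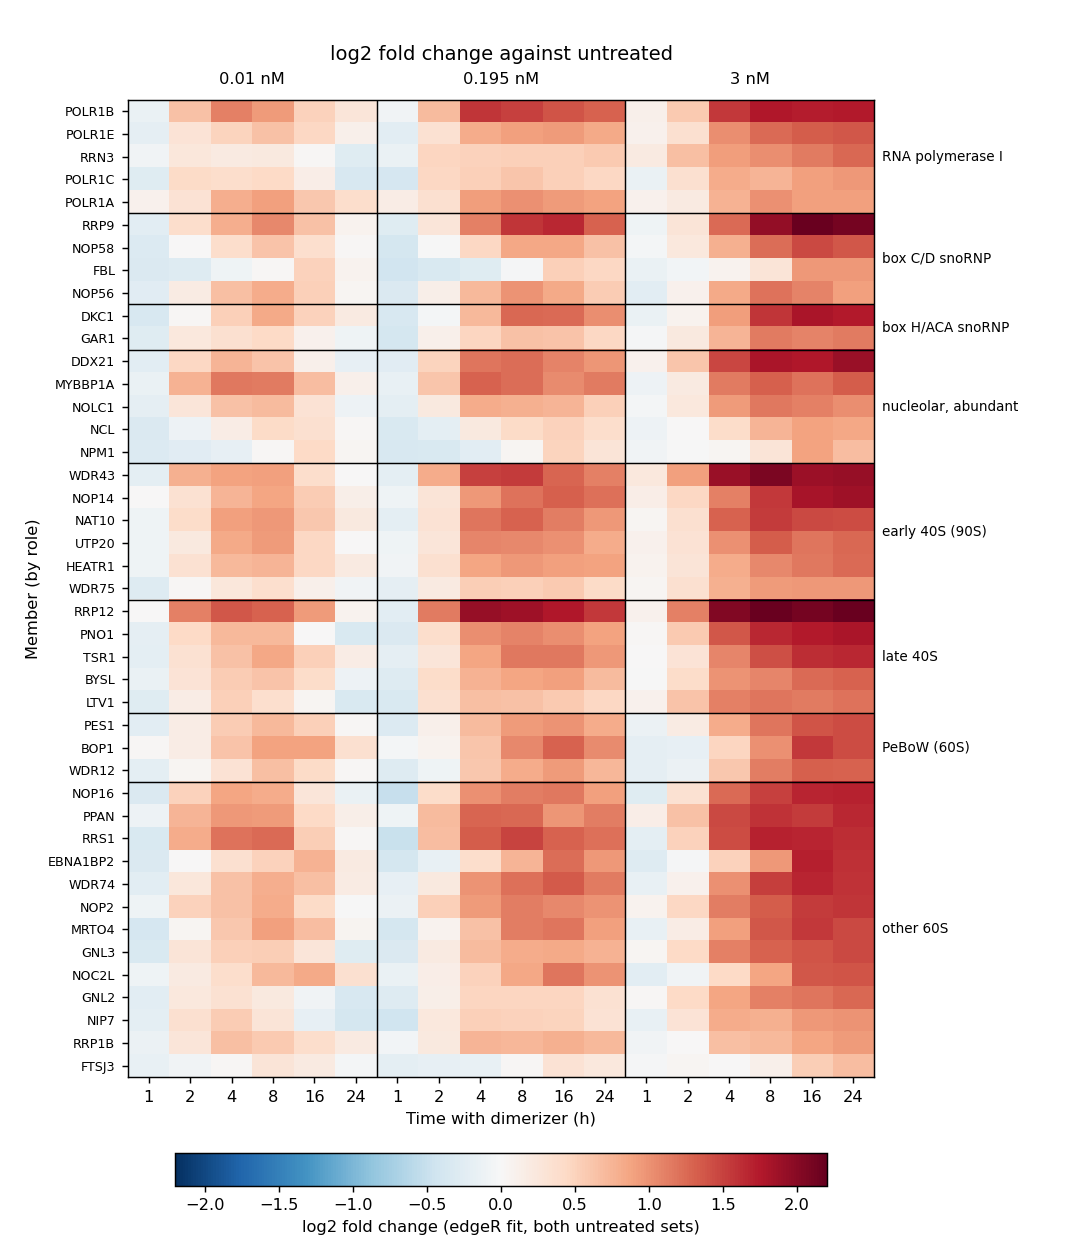
Colour gives the log2 fold change against untreated of each of the 43 members (rows, grouped by role, ordered within a role by the value at 3 nM for 24 h) at each time in h (columns) for the 3 doses of dimerizer. Red deepens with time at 3 nM and fades after 8 h at 0.01 nM, while FBL, NPM1 and FTSJ3 stay pale until late.

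Many members held the same motif near their start sites, a feature that the choice of genes did not use. The E-box CACGTG, a palindrome that reads the same on both strands, is the preferred site of MYC with MAX and of related factors. In RefSeq promoter windows (GRCh38.p14, 250 bases before to 50 bases after a transcription start) 36 of the 43 members were matched, with 45 windows, and 18 of the 36 (50%) held at least 1 E-box. The share was 8.77% of all 27305 genes with a window, 12.3% of the 11270 tested genes with one, and 30.8% of the other 104 ribosome biogenesis factors with one. By window the share was 42.2% for members, 27.6% for the other biogenesis factors, 9.03% for tested genes and 7.26% of all 35116 windows. Within 50 bases of the start it was 40%, 19%, 3.59% and 2.82% in the same order. Where members held it, the motif mostly lay just after the start rather than before it: 14 of the 19 motifs began in the first 50 transcribed bases. The core of the C/EBP-ATF element, TGATGNAA, which ATF4 and its partners bind, was found on either strand in 0 of the 45 member windows. It was in 3.62% of all windows, in 2.1% of those of tested genes and in 0.862% of those of the other biogenesis factors. With shares this low, 0 of 45 windows cannot show that members lack the element more than other genes do. These are matches of letters, and no binding was measured.

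The following 30-base sequences show the E-box, in capitals, in 7 members. Their log2 fold changes at 3 nM for 24 h ran from 0.96 in FBL, which rose late, to 2.11 in RRP9. Over all 43 members the range was 0.68 to 2.17, so the smallest rises are not among the 7. The sequences are from RefSeq (GRCh38.p14), printed 5′ to 3′ on the strand of the gene, with 12 bases on each side of the motif.
RRP9, chr3:51941892-51941921, minus strand: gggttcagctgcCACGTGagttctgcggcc
WDR43, chr2:28894658-28894687, plus strand: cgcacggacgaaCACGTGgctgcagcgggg
NOP14, chr4:2963374-2963403, minus strand: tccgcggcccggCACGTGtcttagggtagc
UTP20, chr12:101280083-101280112, plus strand: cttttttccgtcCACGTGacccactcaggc
GNL3, chr3:52686026-52686055, plus strand: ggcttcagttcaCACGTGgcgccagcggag
PES1, chr22:30591880-30591909, minus strand: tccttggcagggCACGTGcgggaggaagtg
FBL, chr19:39846356-39846385, minus strand: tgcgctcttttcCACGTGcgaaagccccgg
Counted from the start site RefSeq gives, the motif began at -5 and -10 in RRP9 and UTP20 and at 3, 15, 6, 13 and 6 in WDR43, NOP14, GNL3, PES1 and FBL. Flanking letters differed between the genes, so the shared part is the motif itself. The 18 members with an E-box had a median log2 fold change of 1.44 at 3 nM for 24 h (0.96 to 2.11), and the 18 members with a window that lacked it had 1.25 (0.68 to 1.75). At 4 h the medians were 1.10 (0.07 to 1.90) and 0.82 (0.00 to 1.56). The ranges overlapped over most of their length, and no test was made of this split.

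**Figure D3:**
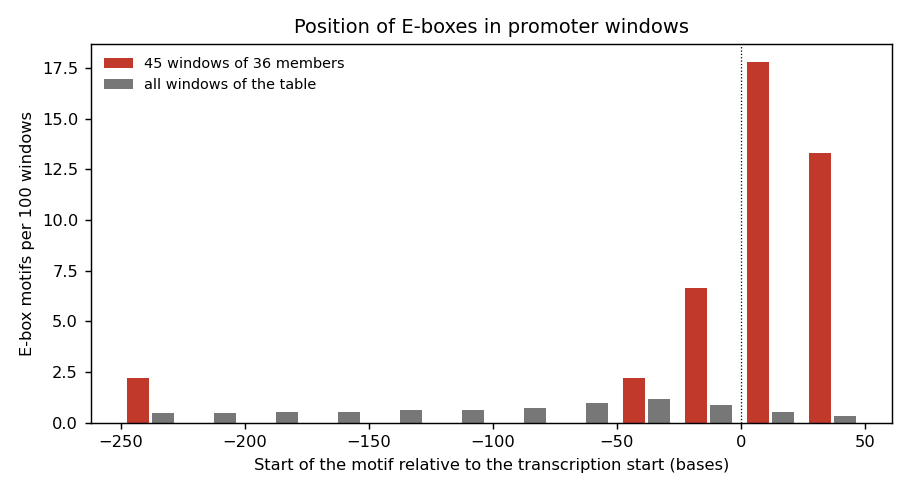
Bars give the number of E-box motifs per 100 promoter windows (y axis) by the position of the motif's first base relative to the transcription start (x axis, bases, in bins of 25), for 45 windows of 36 members in red and all 35116 windows in grey. Member motifs concentrate after the start, at 17.8 per 100 windows in the first bin there against 0.547 for all windows.

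All 5 genes of the RNA polymerase I group were called higher at 3 nM for 24 h, with a median log2 fold change of 1.26. POLR1B, the second-largest subunit of the enzyme, was at 46.5, 55.1 and 53 CPM in untreated set 1 and 53.1, 51.8 and 53.2 in set 2. It reached 159, 154 and 148 CPM at 3 nM for 4 h and 175, 174 and 177 for 24 h. The treated libraries lay above every untreated one, by 3.38-fold on average at 24 h (log2 fold change 1.75 ± 0.0382 SE, edgeR, Benjamini-Hochberg adjusted p = 1.4e-43). At 0.01 nM POLR1B was at 116, 106 and 112 CPM at 4 h and 61.2, 59.4 and 66 at 24 h, both still above every untreated library. POLR1A, the largest and catalytic subunit, was at 92.6, 99.1 and 93 CPM in untreated set 1 and 119, 117 and 118 in set 2, so the sets themselves did not overlap. At 24 h it was at 198, 197 and 190 CPM at 0.2 nM and 204, 191 and 198 at 3 nM, above all untreated libraries. Those doses overlapped, and POLR1A was the 1 member not called different between them (log2 difference 0.02 ± 0.0372 SE, edgeR, Benjamini-Hochberg adjusted p = 0.64). RRN3, the factor that brings the polymerase to the ribosomal DNA promoter, was at 31.2, 26.2 and 31.5 CPM in untreated set 1 and 31.2, 33.3 and 31.1 in set 2. At 3 nM it was at 50.1, 48.8 and 47.8 CPM at 2 h and 75.4, 72.3 and 73.6 at 24 h, its highest time. RRN3 has 2 annotated pseudogenes that could share its reads, so its level is uncertain. POLR1C, a subunit shared with RNA polymerase III, was lower than untreated at 0.01 nM for 24 h (-0.35 ± 0.0695 SE) and higher at 3 nM (0.96 ± 0.0478 SE). POLR1E, an accessory subunit of RNA polymerase I, rose by 1.36 ± 0.0345 SE.

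Proteins of the box C/D particle moved on different schedules. RRP9 (chr3:51933430-51941941, minus strand, GRCh38), the protein specific to the U3 particle that guides the first cuts of the precursor, was at 34, 32.9 and 35.7 CPM in untreated set 1 and 34.5, 33.7 and 33.4 in set 2. It was at 83.4, 81.4 and 78.9 CPM at 3 nM for 4 h, 151, 156 and 155 at 16 h and 148, 149 and 143 at 24 h, without overlap (4.31-fold at 24 h, log2 2.11 ± 0.0454 SE, edgeR, Benjamini-Hochberg adjusted p = 8.4e-44). RRP9 had the second-largest rise of the 43 at that time. NOP56, a core protein of all box C/D particles, was at 164, 170 and 160 CPM in untreated set 1 and 169, 161 and 167 in set 2. At 3 nM it was at 366, 383 and 385 CPM at 8 h and 308, 312 and 308 at 24 h, a rise that peaked early and was partly lost. FBL, the methyltransferase of the same core, did the reverse. It was at 85, 90.7 and 89.3 CPM in untreated set 1 and 104, 95 and 102 in set 2, at 98.8, 102 and 95.1 at 3 nM for 4 h, inside the untreated range, and at 179, 184 and 185 at 24 h, above it. At 0.2 nM for 4 h FBL was lower than untreated, at 83.1, 73.2 and 78.2 CPM (log2 fold change -0.27 ± 0.0478 SE, edgeR, Benjamini-Hochberg adjusted p = 3.1e-06); on TPM that call was not made. NOP58, the partner of NOP56, rose by 0.79 ± 0.0336 SE at 4 h and 1.36 ± 0.0326 SE at 24 h at 3 nM on the log2 scale. The E-box of FBL and that of RRP9 begin within 6 bases of their starts, as printed above.

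**Figure D4:**
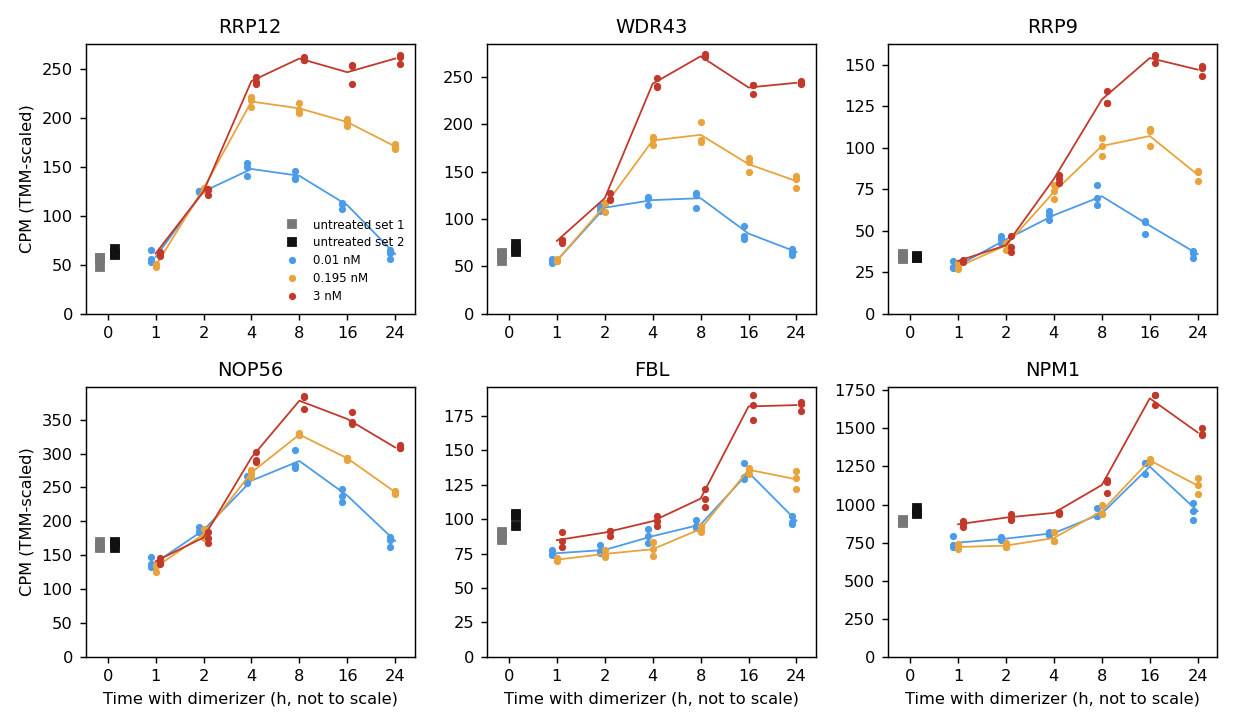
CPM of 6 members (y axis, from 0, TMM-scaled) in every library by time with dimerizer (x axis, h, not to scale), with squares for the untreated sets, colours for doses and lines through the means of 3 libraries. RRP12 and WDR43 lie above all untreated libraries by 2 h at all doses, and FBL and NPM1 at 3 nM lie above all untreated libraries only from 8 h on.

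Both box H/ACA proteins rose. DKC1, the pseudouridine synthase dyskerin, which also binds telomerase RNA, was at 123, 124 and 114 CPM in untreated set 1 and 139, 127 and 130 in set 2. It was at 246, 234 and 234 CPM at 3 nM for 4 h and 415, 433 and 412 at 24 h, with no overlap (log2 1.74 ± 0.0374 SE at 24 h, edgeR, Benjamini-Hochberg adjusted p = 8.1e-44). At 0.01 nM DKC1 was still called higher at 24 h, by 0.19 ± 0.0451 SE on the log2 scale. GAR1, a small core protein of the same particle, rose less, by 1.14 ± 0.0425 SE at 3 nM for 24 h.

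The 5 genes grouped as abundant nucleolar proteins and factors linked to transcription ranged from 0.68 to 1.90 at 3 nM for 24 h. DDX21, an RNA helicase that works on transcription by RNA polymerases I and II and on the precursor itself, was at 263, 258 and 253 CPM in untreated set 1 and 323, 308 and 304 in set 2. At 3 nM it was at 794, 780 and 784 CPM at 4 h and 1044, 1072 and 1058 at 24 h, and at 0.01 nM for 24 h at 257, 246 and 246, inside or below the untreated range. DDX21 thus spanned a log2 fold change of 1.90 ± 0.0301 SE at the highest dose and -0.18 ± 0.0346 SE at the lowest, both called. At the lowest dose its libraries lay well below those of set 2 but close to those of set 1. The size of that fall therefore depends on the untreated set. NPM1 (chr5:171387116-171411137, plus strand, GRCh38), the most abundant member and a chaperone of the nucleolus, was at 901, 881 and 885 CPM in untreated set 1 and 976, 951 and 940 in set 2. It was at 947, 952 and 936 CPM at 3 nM for 4 h, not called different from untreated, then at 1655, 1720 and 1717 at 16 h and 1455, 1505 and 1461 at 24 h, above it. NPM1 shares its rise of 0.68 at 24 h, the smallest of the 43, with FTSJ3. GENCODE lists 45 pseudogenes named for NPM1, so its level is uncertain. The same limit applies to NOP56 and NIP7 (3 pseudogenes each), NCL, PES1 and NOC2L (2 each) and LTV1 and GNL2 (1 each). NCL, nucleolin, was at 458, 488 and 482 CPM in untreated set 1 and 541, 505 and 518 in set 2, and at 672, 658 and 658 at 3 nM for 4 h and 893, 915 and 892 at 24 h. MYBBP1A, a nucleolar partner of MYB, rose early at each dose, by 1.16, 1.30 and 1.15 on the log2 scale at 4 h from the lowest dose to the highest. NOLC1, a chaperone of small nucleolar particles, rose by 1.02 ± 0.0343 SE at 3 nM for 24 h.

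All 6 factors of early small subunit processing were called higher at 3 nM for 24 h, with a median of 1.35. WDR43 (chr2:28894643-28948222, plus strand, GRCh38), a protein of the first large precursor of the small subunit (the 90S particle), was at 64.1, 63.3 and 56.1 CPM in untreated set 1 and 73.2, 65.4 and 68.2 in set 2. It was already at 113, 114 and 108 CPM at 0.01 nM, 117, 117 and 107 at 0.2 nM and 127, 121 and 120 at 3 nM after 2 h, all above untreated. At 3 nM WDR43 was at 249, 240 and 241 CPM at 4 h and 244, 246 and 243 at 24 h, with no called difference between these times. At 0.01 nM for 24 h it was at 68.7, 65.1 and 62 CPM, within the untreated range. UTP20, a very large scaffold protein of the same particle, was at 37.6, 41.5 and 39.5 CPM in untreated set 1 and 43.5, 41.2 and 44.6 in set 2. It was at 82.9, 83.9 and 82.9 CPM at 3 nM for 4 h and 100, 97.3 and 98.8 at 24 h. NOP14 kept rising, from 74, 71.1 and 67.9 CPM at 4 h to 121, 119 and 119 at 24 h at 3 nM, with 30.2, 34.9 and 28.3 in untreated set 1 and 37.1, 33.1 and 34.9 in set 2. WDR75 showed the smallest rise of this step at 3 nM for 24 h (0.96 ± 0.0353 SE). HEATR1 and NAT10, an acetyltransferase of ribosomal RNA, rose by 1.24 ± 0.034 and 1.44 ± 0.0394 SE on that scale.

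The 5 factors of late small subunit assembly had the highest median of the role groups at 3 nM for 24 h, 1.65. RRP12 (chr10:97356358-97426076, minus strand, GRCh38), which takes part in the export and maturation of the pre-40S particle, was at 56.8, 56.6 and 47.3 CPM in untreated set 1 and 66, 59.7 and 61.5 in set 2. After 2 h it was at 125, 124 and 125 CPM at 0.01 nM, 129, 128 and 126 at 0.2 nM and 128, 126 and 121 at 3 nM, above untreated and close together. The doses parted at 4 h, at 154, 141 and 150, 222, 219 and 211, and 237, 235 and 242 CPM. At 24 h the same doses stood at 64.8, 62.1 and 55.8, 174, 168 and 170, and 265, 263 and 255 CPM, so the lowest dose had fallen back into the untreated range. From 4 to 24 h RRP12 fell by 1.28 on the log2 scale at 0.01 nM (SE 0.0527, edgeR, Benjamini-Hochberg adjusted p = 1.0e-28), the largest fall of any member. PNO1, a protein that holds the end of the small subunit RNA, was at 32.6, 36 and 32.1 CPM in untreated set 1 and 42.3, 41.2 and 36.1 in set 2. It was at 127, 127 and 125 CPM at 3 nM for 24 h, above these, and at 27.7, 30.3 and 28.7 at 0.01 nM, below them. BYSL, bystin, was at 55.5, 58.7 and 57.2 and 59.3, 57.1 and 54.8 CPM in the untreated sets and at 141, 144 and 135 at 3 nM for 24 h. LTV1, an export factor of the pre-40S particle, rose by 1.11 ± 0.04 SE at 4 h and 1.19 ± 0.0397 SE at 24 h at 3 nM, with no called difference between these times. TSR1, a GTPase-like factor of late maturation, rose by 1.65 ± 0.0332 SE at 24 h.

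PES1, BOP1 and WDR12 form the PeBoW complex, which is needed to process the RNAs of the large subunit. Their median at 3 nM was 0.59 at 4 h, the lowest of the role groups, and 1.43 at 24 h. PES1 was at 154, 163 and 154 CPM in untreated set 1 and 147, 140 and 143 in set 2, and at 269, 265 and 262 at 3 nM for 4 h and 411, 406 and 396 at 24 h. BOP1 was at 188, 187 and 178 and 180, 171 and 170 CPM in the untreated sets, at 258, 251 and 234 at 3 nM for 4 h and at 496, 480 and 470 at 24 h. WDR12 was at 47.6, 48.3 and 48.8 and 48.8, 50.6 and 49.3 CPM in the untreated sets, at 74.6, 75.6 and 70.9 at 3 nM for 4 h and at 119, 123 and 119 at 24 h. No library of these at 4 or 24 h overlapped the untreated ones. At 2 h, in contrast, BOP1 and WDR12 were called lower at 3 nM (-0.18 ± 0.0382 and -0.13 ± 0.0455 SE), the 2 members lower at that dose and time (23.1% of all genes were). On TPM no member was lower there, when 1123 of all genes were. BOP1 remained above untreated at 0.01 nM for 24 h, at 229, 237 and 220 CPM (0.36 ± 0.04 SE).

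All 13 other factors of the large subunit were called higher at 3 nM for 24 h, with a median of 1.46. NOP16, a nucleolar protein of early pre-60S particles, was at 34.4, 42.1 and 37 CPM in untreated set 1 and 40.4, 36.2 and 36.2 in set 2, and at 92.5, 85.6 and 88.9 at 3 nM for 4 h and 122, 123 and 122 at 24 h. It had the largest rise of the 13 (1.70 ± 0.0499 SE, edgeR, Benjamini-Hochberg adjusted p = 4.4e-37). FTSJ3, a methyltransferase of precursor RNA, had the smallest. FTSJ3 was at 91.9, 95.6 and 93 CPM in untreated set 1 and 98.8, 95.5 and 98.4 in set 2, at 91.3, 95.6 and 100 at 3 nM for 4 h, with overlap, and at 150, 159 and 150 at 24 h, without it. EBNA1BP2 made most of its rise after 4 h, from 190, 184 and 189 CPM to 406, 407 and 396 at 24 h at 3 nM, with 132, 138 and 126 and 139, 127 and 129 in the untreated sets. Its gain of 1.10 ± 0.0427 SE between those times was the largest of the 43. NOP2, a methyltransferase of large subunit RNA, was at 47, 45.9 and 46.3 and 53.3, 53.2 and 50.4 CPM in the untreated sets and at 151, 149 and 143 at 3 nM for 24 h. RRS1 rose early, by 1.44 ± 0.0481 SE at 4 h at 3 nM. PPAN rose by 1.65 ± 0.0442 SE at 3 nM for 24 h, but a readthrough gene with its neighbour overlaps it, so its count is uncertain. The other 7 (GNL2, GNL3, RRP1B, WDR74, NOC2L, NIP7 and MRTO4) rose by 0.93 to 1.59 at 3 nM for 24 h.

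At the lowest dose the counts of members called at 24 h were near the shares of all genes (21% higher and 22.2% lower), so the names are a description. With 1 library of a group or 1 replicate of every group left out, 8 to 14 members were higher; the 8 came without replicate 1 of that dose and time. The 12 members called higher at 0.01 nM for 24 h were POLR1A, POLR1B, POLR1E, DKC1, HEATR1, NAT10, TSR1, BOP1, RRP1B, WDR74, NOC2L and EBNA1BP2, by 0.11 to 0.38 on the log2 scale. The 9 called lower were POLR1C, RRN3, NOLC1, DDX21, PNO1, LTV1, GNL2, GNL3 and NIP7, by -0.38 to -0.12. NIP7, a factor of the large subunit, was lowest, at 39.8, 40 and 39.2 CPM against 52.7, 47.3 and 44.3 in untreated set 1 and 59.1, 54.5 and 52.9 in set 2. No library of NIP7 at that dose and time reached an untreated one. The split depended on the scale: on TPM 25 members were higher and 4 lower. All genes moved up on that scale too, with 5151 called higher and 1420 lower and a median of 0.15. Relative to that median the members' median was 0.06.

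The time from 4 to 24 h was compared within each dose without any untreated library. At 0.01 nM 39 members fell and 2 (FBL and NPM1) rose, with a median of -0.61, when 23.2% of all genes fell and 21.9% rose. At 0.2 nM 15 rose and 14 fell, with a median of -0.01 (25.6% and 26.2% of all genes). At 3 nM 41 rose and 0 fell, with a median of 0.40 (34.5% and 33.4% of all genes), and only WDR43 and LTV1 were not called. On TPM the numbers were 1 higher and 34 lower, 9 and 7, and 32 and 0. Of all genes on that scale, 3465 were higher and 2955 lower, 3402 and 3880, and 4253 and 4078. The difference between 3 and 0.2 nM in this change was itself tested, and 42 of the 43 were called higher (19.5% of all genes), with a median of 0.39; NPM1 was the exception (0.11 ± 0.0482 SE, edgeR, Benjamini-Hochberg adjusted p = 0.06). Between 0.2 and 0.01 nM all 43 were called higher (15.2% of all genes), with a median of 0.58. On TPM these were 28 and 36 members, when 1749 and 1428 of all genes were called higher. Members ranked alike in part: over the 43, the changes at 3 and 0.01 nM, which share no library, had Pearson's r = 0.63 and Spearman's rho = 0.60, as a description over genes that are not replicates.

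**Figure D5:**
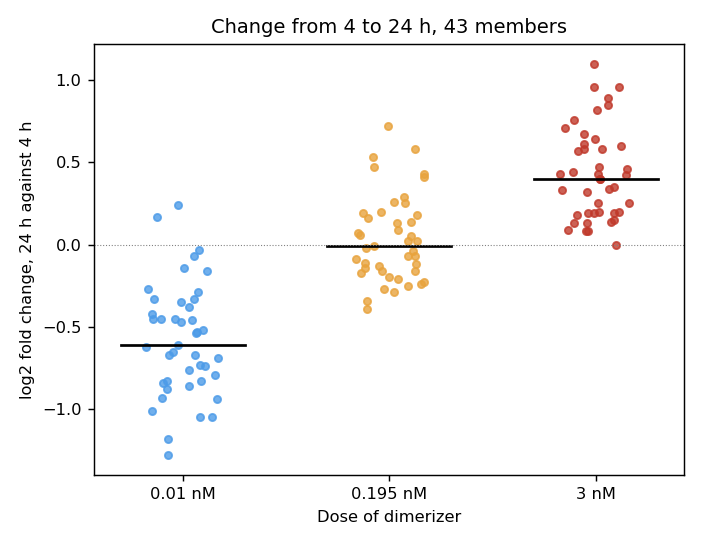
Each point is the log2 fold change of 1 of the 43 members from 4 to 24 h (y axis) at one dose of dimerizer (x axis), with sideways scatter only for visibility and a black line at the median. The cloud lies mostly below 0 at 0.01 nM (median -0.61), around it at 0.2 nM (-0.01) and above it at 3 nM (0.40).

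Doses were also compared at matched times. Between 0.2 and 0.01 nM, 26, 35, 41 and 43 members were called higher at 4, 8, 16 and 24 h, with medians of 0.15, 0.23, 0.51 and 0.79, when 13.6%, 18.9%, 23.5% and 26.9% of all genes were. Lower were 2 at 4 h (10.3% of all genes) and 1 at 8 h (17.8%). At 1 h these doses hardly differed, with 1 member called lower and none higher (0.416% and 0.344% of all genes). Between 3 and 0.2 nM the numbers were 31, 36, 41 and 42 and the medians 0.19, 0.31, 0.40 and 0.56, when 21.3%, 23.4%, 26.9% and 30.6% of all genes were, and 3 were lower at 4 h (15.5%). From 4 h on the medians were larger at each later time in both comparisons. The order did not hold earlier between 3 and 0.2 nM, where the median was 0.23 at 1 h and 0.05 at 2 h. On TPM the first set was 25, 32, 39 and 43 members, when 2156, 3121, 3737 and 3577 of all genes were higher. The second was 10, 25, 30 and 39 members on TPM, when 1098, 1782, 1717 and 2892 of all genes were. In the second, 4 members were lower at 4 h on TPM, when 2400 of all genes were. Of all genes called there, the share that was higher at 4 h went from 57.9% on counts to 31.4% on TPM. At 1 h 33 members were higher at 3 nM than at 0.2 nM (15.9% of all genes) on counts, and 17 on TPM, when 867 of all genes were. The 3 nM libraries were also the more deeply sequenced ones, so dose and depth cannot be told apart between 3 and 0.2 nM. The untreated sets differed in depth in the same way. Between them 18 members were higher in set 2 on counts (14.9% of all genes), with a median of 0.10. The pattern over members was similar between doses: at 24 h, 3 nM against untreated set 2 and 0.2 nM against untreated set 1, with no library in common, had r = 0.85 and rho = 0.84 over the 43 genes, as a description.

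The rest of the pathway was read from a list of 136 other ribosome biogenesis factors, of which 127 were tested. At 3 nM for 24 h 120 were called higher and 2 lower, with a median of 1.03, and 67 rose at least 2-fold (10.5% of all genes). The largest rises were in PDCD11 (2.05), NOC3L (2.04) and the helicase DDX10 (1.90), all nucleolar factors. The 2 that were lower were the helicase DDX47 (-0.77) and UBTF (-0.14), the factor that holds ribosomal DNA open for RNA polymerase I. POLR1D, a subunit shared by RNA polymerases I and III, was not called (0.08), nor was IMP3, a protein of the U3 particle (-0.10). At 0.2 nM for 24 h 111 were higher and 3 lower (median 0.54), and at 0.01 nM 43 and 24 (median 0.06). Of all genes, 34.3% were higher and 31.2% lower at 0.2 nM, 21% and 22.2% at 0.01 nM, and 41.1% and 36% at 3 nM. The 43 became 26 without replicate 2 of every group. From 4 to 24 h the list gave 105 higher and 7 lower at 3 nM, 56 and 28 at 0.2 nM and 9 and 83 at 0.01 nM. The shares of all genes in this change were 34.5% and 33.4%, 25.6% and 26.2%, and 21.9% and 23.2%, in the same order. The members' medians at 24 h, 1.36, 0.88 and 0.03, stood beside those of this wider list, and the difference between the lists was not tested.

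Since the E-box is the site of MYC with MAX, the mRNA of both was read as well. MYC was at 357 ± 82.2 CPM in the untreated libraries (SD, n = 6), and the untreated sets differed in it. At 3 nM it was at 684 ± 35.8 CPM at 2 h and 469 ± 8.76 at 24 h (SD, n = 3), log2 fold changes of 0.97 ± 0.04 and 0.43 ± 0.0408 SE. Against set 1 alone these were 0.67 and 0.12, and against set 2 alone 1.27 and 0.73. At 16 h at that dose the direction depended on the set, with -0.02 against set 1 and 0.58 against set 2. At 0.01 nM MYC was at 219 ± 20.5, 174 ± 16.9 and 87.8 ± 6.11 CPM at 2, 4 and 24 h. Its log2 fold changes were -0.67, -1.01 and -1.99, and the members' medians at the same times were 0.26, 0.63 and 0.03. At 0.2 nM for 24 h the direction of MYC depended on the untreated set, with -0.51 against set 1 and 0.10 against set 2. MAX was at 69.7 ± 8.1 CPM untreated and 146 ± 1.36 at 3 nM for 24 h, a log2 rise of 1.08 ± 0.0383 SE. Both belong to a list of the MYC and MAX network with 11 tested genes. At 3 nM for 24 h 6 of the 11 were called higher and 5 lower, when 41.1% and 36% of all genes were. MXD1 had the largest rise (3.67 ± 0.0722 SE) and MXD3 the largest fall (-2.51 ± 0.0755 SE). MYC protein was not measured, and the part of any of these genes in the members' levels was not tested.

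Several members also carry small nucleolar RNA genes within them, on the same strand. GENCODE release 29 places at least 1 inside NOP56 (5 of them), NOP58 (4), DKC1 (2), NCL (3), WDR43 (3), TSR1 (2), GNL3 (6) and PPAN (2). NOP56, for example, holds SNORD86, SNORD56 and SNORD57. Such RNAs are usually released from introns of the host, and their own levels were not analysed here.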

How the data were processed

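Gene expression was measured in 60 libraries made from total RNA with a strand-marking kit, per the labels. Per the submitters' processing notes, Salmon 0.9.1, FastQC 0.11.5 and the build GRCh38 were used, and the annotation release behind the quantification is not given in the sources used here. The authors deposited estimated counts per gene, of which 77.8% were whole numbers (within 1e-06, zeros included), and TPM per gene. Estimated counts were rounded, filtered with filterByExpr (18040 of 57665 genes kept) and fitted in edgeR 4.0.16 (R 4.3.3) with TMM, 20 group means and 40 residual degrees of freedom, and quasi-likelihood tests were adjusted by Benjamini-Hochberg over all genes tested. A call is an adjusted p under 0.05. The control averages the means of the 2 untreated sets. The middle dose is 0.195 nM in the labels. The deposited TPM were tested as an alternative with limma 3.58.1 on log2(TPM + 0.5), and DESeq2 1.42.0 was another. The scripts were tested on simulated data.

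The members and gene lists were chosen with earlier results of these data known. Named with values were, per role, the members with the largest and smallest log2 fold change at 3 nM for 24 h, fixed representatives of each step, members called lower or not called where 5 or fewer were, the most and least abundant members, and 3 at each end of the list of other factors. Other members named were chosen after their values were seen. Gene positions and pseudogenes are from GENCODE for GRCh38, and promoters from RefSeq (GRCh38.p14). Total counts of 5598803 to 28436445 per library limit the precision, and the labelled replicate numbers were not treated as pairs.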

Additional observations from a re-analysis of the deposited data

Results flagged for a closer look

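The change from 4 to 24 h differed between doses by the test of the difference itself (edgeR, Benjamini-Hochberg adjusted). It was higher at 3 nM than at 0.2 nM in 42 of the 43 members; over all 43, with NPM1 lowest and not called, the log2 differences were 0.11 to 0.67. It was higher at 0.2 nM than at 0.01 nM in all 43, with differences of 0.21 to 1.06. The 3 nM libraries were also the more deeply sequenced ones, so dose and depth cannot be told apart between the doses of the first comparison. Within 3 nM total counts were similar at both times, 21508695 to 27658405 at 4 h and 23848361 to 24865045 at 24 h. In the second comparison both doses were sequenced to like depth.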

How the results depend on the processing

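Of the main counts and medians under the alternatives, 475 values stayed close to the main value and 47 moved. The members' median changed sign on TPM at 3 nM for 1 h, from -0.03 to 0.19, and between 3 and 0.2 nM at 2 h, from 0.05 to -0.03, and between 0.2 and 0.01 nM at 1 and 2 h, from -0.05 to 0.04 and 0.01. Most moves came with the deposited TPM (log2(TPM + 0.5), log2(TPM + 1) and log2(TPM + 0.5) with no filter, in that order), and the cause was not tested. Members lower at 1 h went from 28 to 7, 7 and 7 at 0.01 nM, from 34 to 7, 7 and 6 at 0.2 nM and from 16 to 0, 0 and 0 at 3 nM. Members higher at 0.01 nM for 24 h went from 12 to 25, 25 and 22. Between 3 and 0.2 nM they went from 33 to 17, 17 and 12 at 1 h, from 14 to 4, 4 and 4 at 2 h and from 31 to 10, 10 and 8 at 4 h. From 4 to 24 h at 0.2 nM they went from 15 to 9, 9 and 7, and for the change between 3 and 0.2 nM from 42 to 24 with no filter. In untreated set 2 against set 1 they went from 18 to 34 in each, and to 8 to 11 when 1 replicate was left out. Between 0.2 and 0.01 nM the 1 member lower at 1 h became 0 under TPM, with no count filter and with the groups compared alone, and 0 to 2 with 1 replicate left out; the 2 higher at 2 h became 1, 0, 0 and 0 to 1. Leaving out a replicate moved small counts too: members higher from 4 to 24 h at 0.01 nM were 1 to 2 (2 in the full fit), members lower at 0.01 nM for 4 h 1 to 2 (1), and members lower between 3 and 0.2 nM at 4 h 0 to 3 (3). With a replicate block 43 members were higher at 3 nM for 24 h, and only the count between 3 and 0.2 nM at 2 h changed, from 14 to 15; the numbers share only a number, since 1 of 57 pairs of groups had every same-number correlation over 0.1 and 64 of 171 libraries were closest to their own number.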
